A study of Drosophila melanogaster with 2 samples.

Results

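The 10 genes described here encode kinases, phosphatase subunits and ubiquitin ligase components linked to the Drosophila clock: mts, tws, dco, sgg, CkIIalpha, CkIIbeta, slmb, nmo, jet and Fbxl4. They were taken from a fixed list of names and make up 10 of 13945 protein-coding genes on the 6 main chromosome arms. A region was assigned to a gene when it overlapped the gene body or the 5 kb on either side. Distances printed below for single regions are measured from the summit. Under that rule the 10 genes had 16 thresholded regions, and each gene had at least 1, beside 48.4% of all protein-coding genes. At 7 genes a summit lay within 500 bp of one of the gene's own transcription start sites, beside 22.9% of all protein-coding genes. At CkIIalpha, nmo and jet the thresholded regions lay at the start sites of neighbouring genes.

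The assay was chromatin immunoprecipitation with sequencing (ChIP-seq) of Crg-1, a forkhead-family transcription factor that was first described as a circadianly regulated gene. There was 1 group of 2 biological replicates, numbered 2 and 3 in the labels, both from whole adult flies of pooled sex and unknown age. All flies came from a transgenic line that stably expresses Crg-1 with GFP at its C terminus, and the antibody was directed against GFP. For the hour of collection and the promoter that drives the fusion, nothing was found in the labels used here. No flies without the tag were analysed here, and whole flies do not tell in which cells a region was occupied.

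The fly clock turns on the slow phosphorylation and timed destruction of the repressor proteins period and timeless. Kinases mark these proteins, the phosphatase removes marks, and F-box proteins hand the marked proteins to the proteasome. Light resets the loop through the photoreceptor protein cryptochrome and the degradation of timeless. Most of these enzymes also work in many cells that have no clock.

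The authors' thresholded list holds 3707 regions and was set by irreproducible discovery rate, which asks whether ranks hold across replicates. A candidate is said here to pass when it is in that list. Around the members the list held the same regions, at the same ranks, as the first 3707 of the pooled list. A place in it therefore need not mean that a region held its own rank in both replicates. The pooled list and each replicate list hold 30000 candidates, down to low signal. Signal is the value the authors give each region in the signal column, on a scale the sources used here do not state. It served here to rank regions within a list, where rank 1 is the strongest, and is not compared between lists. The lists give no read totals, so depth is unknown. Both replicate lists were made against the same control alignment, and what that adds to their overlap was not tested.

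The summit sequences of the 8 regions at the genes' own starts are shown first, because they are the stretches of DNA the results turn on. Each is the Release 6 (dm6) sequence on the coding strand of the named gene, cut where an annotated untranslated region begins. Where the summit itself lay in such a region only 30 bases are given, around the word nearest the summit at mts and CkIIbeta and around the summit at slmb and Fbxl4. At mts, slmb and Fbxl4 the summit lay outside the gene body, so that untranslated region belongs to another gene. Capitals mark matches to the words of the main search, spelled out further on. A word noticed later in the dco window is not marked.
mts (chr2L:7827302-7827331, + strand): acaggacaaaacTATCGATAgtttgaattt
tws, inner start (chr3R:10134483-10134562, - strand): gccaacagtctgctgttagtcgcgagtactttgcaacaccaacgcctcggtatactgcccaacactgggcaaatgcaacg
tws, outer start (chr3R:10139839-10139939, - strand): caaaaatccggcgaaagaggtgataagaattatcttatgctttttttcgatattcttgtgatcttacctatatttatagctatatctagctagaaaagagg
dco (chr3R:31061504-31061604, - strand): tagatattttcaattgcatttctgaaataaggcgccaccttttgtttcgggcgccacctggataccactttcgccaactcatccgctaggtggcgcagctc
sgg (chrX:2646436-2646536, + strand): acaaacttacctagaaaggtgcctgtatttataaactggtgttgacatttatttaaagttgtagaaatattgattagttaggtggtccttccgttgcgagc
CkIIbeta (chrX:11792562-11792591, + strand): aggacagcggtaATCGATAgtcgagattgc
slmb (chr3R:21127559-21127588, - strand): tcgaaaatttagagcagaaacgacgaaatt
Fbxl4 (chrX:14238183-14238212, - strand): atattctatgcagatatgatttatttgtgc

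The phosphatase genes had the strongest regions of the set. mts encodes the catalytic subunit of protein phosphatase 2A, which acts on period. Its region on arm 2L from 7827170 to 7827409 had a signal of 480.6 and rank 158 in the pooled list. The signal was 264.1 in replicate 2 and 207.3 in replicate 3, at ranks 224 and 125. The replicate summits were 1 bp apart, so the position held while the rank moved. The summit, at 7827274, was 376 bp upstream of the first of 2 start sites of mts. It was only 28 bp from a start of Rack1, which is transcribed the other way and encodes a ribosome-associated scaffold protein. The lists cannot tell which of the 2 genes, or both, the region belongs to. The best remaining candidate around mts, inside the gene, had rank 6146 and a signal of 81.1.

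tws encodes the regulatory subunit that directs protein phosphatase 2A to period, and it had more thresholded regions in reach than any other member, 4. The strongest had a signal of 451.6 and rank 194, on arm 3R from 10134402 to 10134650. It had a signal of 293.0 in replicate 2 and 160.6 in replicate 3, at ranks 162 and 260. Its summit at 10134512 was 30 bp upstream of an inner start site at 10134482. Of the 9 annotated tws transcripts 4 begin there, and no other gene starts within 500 bp. Another region lay at the outermost start, where 1 transcript begins. It had a signal of 156.0, ranks of 1997 in replicate 2 and 2156 in replicate 3, and a summit 117 bp upstream of that start. Both regions are therefore at tws starts alone, with the larger signal at the inner one.

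The other 2 regions of tws lay away from its starts. An intronic one had a signal of 130.6 and a summit 2940 bp downstream of the nearest tws start, at ranks 2807 in replicate 2 and 3428 in replicate 3. One beyond the gene, with a signal of 162.5, lay between the starts of Invadolysin and TAF1B, 4734 bp from the tws gene body. In that region the replicate summits were 283 bp apart, the widest gap of the 16. A candidate that overlapped the region at the outer start came close to passing, at rank 4186 with a signal of 102.4.

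**Figure D1:**
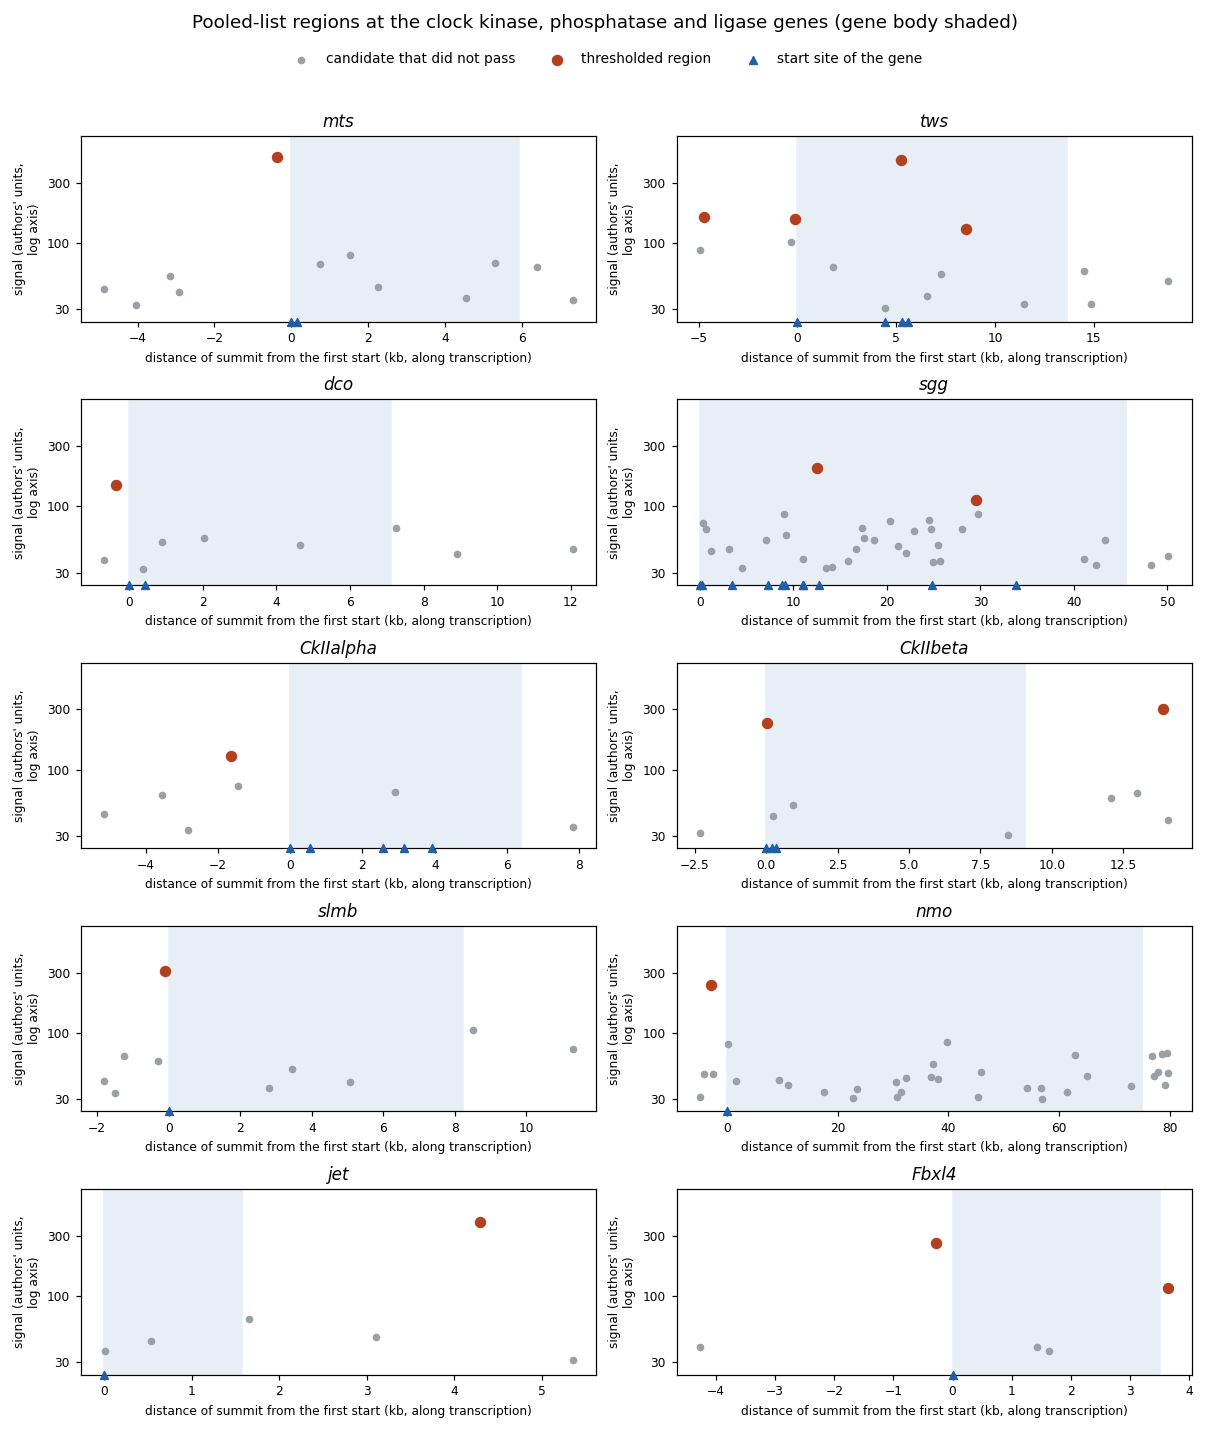
Each panel shows 1 gene, with the distance of region summits from its first start site in kb along the direction of transcription on the x axis and the pooled-list signal on a log y axis. Large points are thresholded regions, small points are candidates that did not pass, triangles are the gene's start sites and shading is the gene body; at tws the strongest region, 451.6, stands at inner starts, and at nmo and jet the thresholded region lies outside the gene.

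The kinase genes ranked lower. dco encodes the casein kinase, also called doubletime, that phosphorylates period. Its only thresholded region, on arm 3R from 31061334 to 31061773, had a signal of 148.1 and rank 2176. The signal was 77.6 in replicate 2 and 71.4 in replicate 3, at ranks 2970 and 1623. The summit at 31061554 was 344 bp upstream of the start shared by 4 of the 5 dco transcripts, and no start of another gene was closer. The dco signal was below the median of all thresholded regions, 161.2.

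sgg encodes the fly homologue of glycogen synthase kinase, which phosphorylates timeless. It is 45602 bp long and has 11 start sites, but 1 of these had a thresholded summit. That region, on chromosome X from 2646266 to 2646705, had a signal of 202.1 and rank 1243. It had a signal of 121.0 in replicate 2 and 81.8 in replicate 3, at the close ranks 1296 and 1239. The summit at 2646486 was 151 bp upstream of the start at 2646637, where a single transcript of the 19 begins. The start at 2633952, used by 6 transcripts, had no thresholded summit within 500 bp. An intronic region 4293 bp from the nearest sgg start had a signal of 112.0. It was the lowest signal among the 16, beside a lowest of 109.7 over all thresholded regions, and is the 1 region of the 16 outside the top 3707 of a replicate, with rank 4682 in replicate 2 against 3288 in replicate 3.

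The 2 subunits of casein kinase II, which phosphorylates period and timeless, differed in where their regions lay. CkIIbeta encodes the regulatory subunit. Its region on chromosome X from 11792342 to 11792781 had a signal of 234.7 and rank 916, and its summit was 29 bp downstream of the first start. The signal was 159.7 in replicate 2 and 66.2 in replicate 3, at ranks 719 and 1821, the largest ratio of replicate ranks among the 16, 1.34 on the log2 scale. It is the 1 summit of the 8 at own starts that lay downstream of the start. The stronger CkIIbeta region, with a signal of 301.3, was 4833 bp past the gene, 67 bp from a start of Hsc70-3, which encodes a chaperone of the endoplasmic reticulum.

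CkIIalpha encodes the catalytic subunit and had no thresholded summit at any of its 5 starts. The region in its reach had a signal of 129.4 and a summit 1634 bp upstream of the gene. That summit was 33 bp from the start of RpL10, a ribosomal protein gene. The best candidate at a CkIIalpha start had a signal of 67.2 and rank 8189 in the pooled list, 11426 in replicate 2 and 12387 in replicate 3.

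nmo encodes nemo, another kinase of period, and at 75102 bp is the longest gene of the set. It had 35 pooled-list candidates in reach, of which 1 passed. That region had a signal of 238.6 and ranks of 888 in replicate 2 and 1021 in replicate 3. Its summit was 2883 bp upstream of nmo and 9 bp from the start of HP4, a heterochromatin protein gene, with a start of CG8209 also within 500 bp. The candidate at the single nmo start, 62 bp from it, had a signal of 81.8 and did not pass. Its rank was 6069 in the pooled list, 8973 in replicate 2 and 4021 in replicate 3.

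The F-box genes differed among themselves. slmb encodes the F-box protein that recognises phosphorylated period. Its region on arm 3R from 21127354 to 21127793 had a signal of 310.1 and rank 504. The signal was 156.0 in replicate 2 and 149.9 in replicate 3, at ranks 757 and 316, with the summits 1 bp apart. The summit at 21127574 was 89 bp upstream of the single slmb start and 1 bp from a start of CG5793, which runs the other way. The region thus covers starts of both genes of a divergent pair. At the divergent pair of mts and Rack1 the region ended at 7827409, short of the first mts start at 7827650.

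Fbxl4 encodes an F-box protein that acts in clock neurons. Its region on chromosome X from 14237978 to 14238417 had a signal of 263.3 and rank 719. The signal was 166.6 in replicate 2 and 98.9 in replicate 3, at ranks 655 and 834. The summit was 275 bp upstream of the single Fbxl4 start and 117 bp from a start of the divergent gene Dus2, a tRNA-modifying enzyme gene. A weaker region, with a signal of 117.0, overlapped the 3' end of Fbxl4. Its summit lay 141 bp past that end and 206 bp from the start of CG42271.

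jet encodes the F-box protein through which light degrades timeless, and its start was the weakest of the set. The candidate 17 bp from it had a signal of 36.8 and rank 21210 in the pooled list, and the best at that start ranked 29133 in replicate 2 and 11459 in replicate 3. The thresholded region in reach was much stronger, with a signal of 388.4 and ranks of 261 in replicate 2 and 376 in replicate 3. It lay 2712 bp from jet, between the starts of betaggt-I, which encodes a subunit of a lipid-attaching enzyme, and mRpL24, a mitochondrial ribosomal protein gene.

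**Figure D2:**
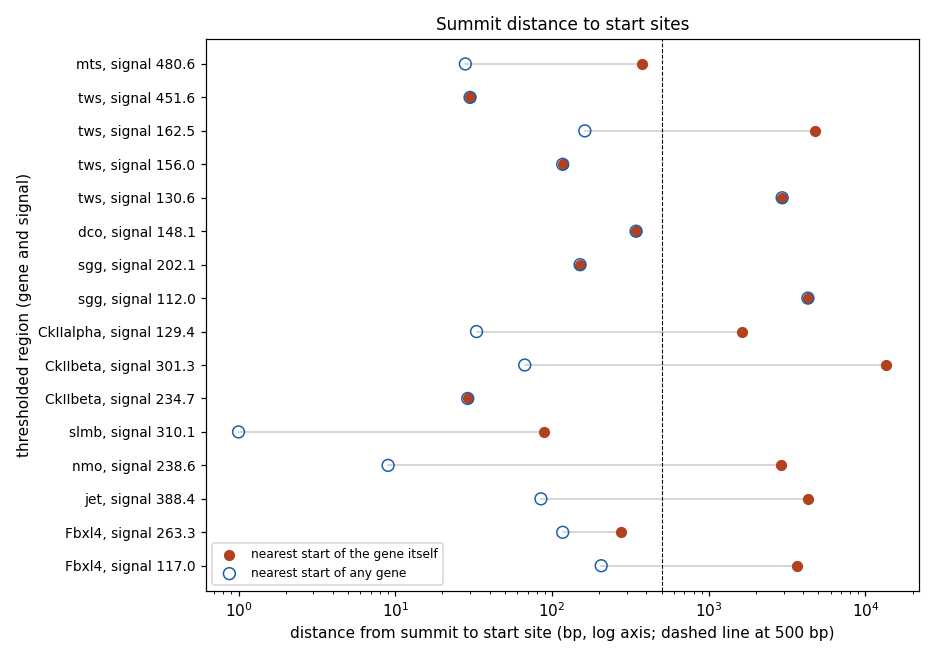
For each of the 16 thresholded regions the plot gives the distance in bp, on a log axis, from the summit to the nearest start of the gene itself (filled points) and to the nearest start of any gene (rings), with the rule of 500 bp as a dashed line. The rings of 14 regions lie left of the line but the filled points of only 8 do.

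The counts were read against all genes. A thresholded region lay within 5 kb for 10 of 10 members and for 48.4% of protein-coding genes. The members are long, with a median of 7680 bp against 2166 bp for all protein-coding genes, and the rule gives a longer gene more sequence. Among genes over 5 kb long the share was 8 of 8 for the members and 56.8% for all. A thresholded summit within 500 bp of an own start was found at 7 of 10 members and at 22.9% of protein-coding genes. Of the 6 members with 2 or more start sites 5 had one, beside 36.3% of such genes. Of the 4 members with 1 start site 2 had one, beside 18.1%. Since the list was chosen with earlier results of these data known, these counts are a description and no test was made.

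The stretches around the members held 5.79 thresholded regions per 100 kb, against 2.77 over the 6 arms. Candidates of the pooled list were also denser there, at 51.1 per 100 kb against 22.4. Both comparisons are with whole arms, and the density in like stretches around other genes is not given. Of the 16 summits 14 were within 500 bp of a start of some gene, beside 70.9% of all thresholded summits. Starts of 2 or more genes were in reach for 6 of the 16, beside 31.3%. For 9 of the 16 the nearest start belonged to a gene other than the member, and 6 of these lay at other genes' starts only.

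Support in the replicates was high. Of the 16 regions 15 overlapped one of the 3707 strongest regions in both replicates, beside 75.9% of all thresholded regions. The median signal was 218.4 for the 16 regions, 249.0 for the 8 at own starts and 161.2 for all thresholded regions. Of the 1853 thresholded regions of highest signal 98.9% overlapped a top region in both. The members had 10 regions among these, and all 10 did, so at like signal the members were near the share of all. The ranks in the replicates differed by a median of 0.52 on the log2 scale, the same as for all thresholded regions. Rank was better in replicate 2 for 8 regions and in replicate 3 for 8. Replicate summits lay a median of 14 bp apart for the 16 and 26 bp for all thresholded regions.

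The order of the members by signal held only in part. In the pooled list the regions at own starts ran from mts through tws, slmb, Fbxl4, CkIIbeta and sgg to dco. tws was ahead of mts in replicate 2 and behind it in replicate 3, so these neighbours were not separated. slmb, Fbxl4 and CkIIbeta also changed places between the replicates. mts and tws led in both, while dco was last of the 7 genes in replicate 2 and CkIIbeta in replicate 3.

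**Figure D3:**
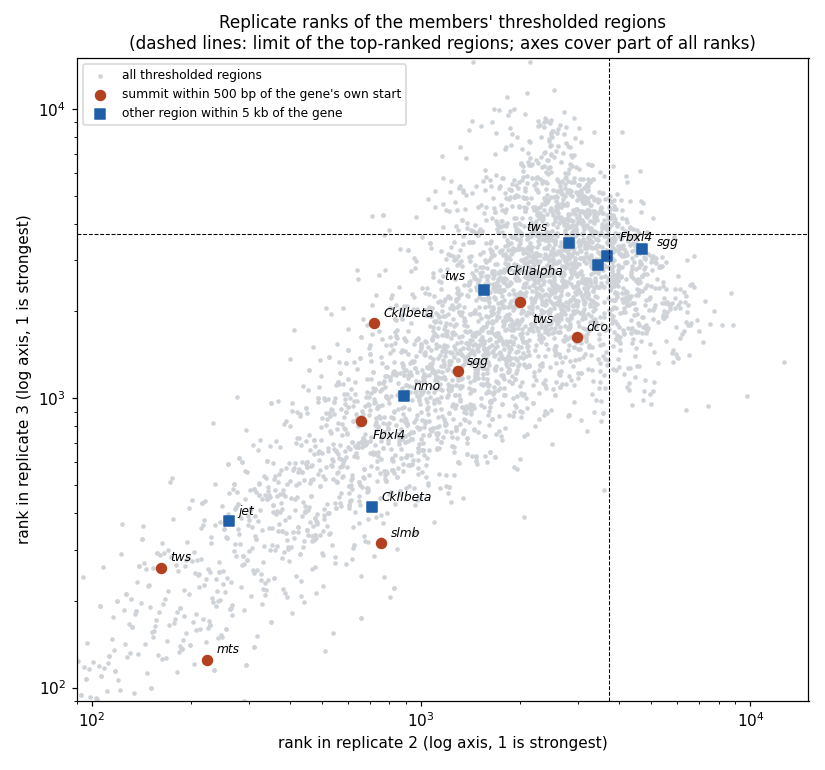
Rank in replicate 2 is plotted against rank in replicate 3 on log axes for the members' 16 thresholded regions, over all thresholded regions in grey, with regions at the gene's own start as circles and the others as squares. The dashed lines mark rank 3707; of the 16 only the intronic sgg region, at 4682 in replicate 2, lies beyond one.

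Words were then searched on both strands within 50 bp of each summit. Crg-1 belongs to the forkhead family, whose members typically bind GTAAACA or ATAAACA. Neither word occurred at any of the 16 summits. One or the other occurred at 11.5% of all thresholded summits, and in 6.65% of windows of the same 101 bp centred on the start sites of protein-coding genes. With 16 regions a share of that size corresponds to few regions, and the absence of the letters says nothing about binding. Within 100 bp of the summit ATAAACA was present at 2 regions, the one upstream of CkIIalpha and the one near jet.

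Words known from broadly used fly promoters were present at some summits, again in few regions. ATCGATA, the core of the DNA replication-related element bound by DREF, occurred at 3 of the 16, beside 7.96% of thresholded summits and 8.81% of start-site windows. Among them was the mts region, which also has a Rack1 start in reach, with the word 44 bp from the summit. Another was the CkIIbeta region at its own start, 15 bp from the summit. The last was the region at the 3' end of Fbxl4. GGTCACAC, the core of the word bound by M1BP, occurred at 2, beside 1.94% of thresholded summits and 4.68% of start-site windows. They were the region between Invadolysin and TAF1B and, again, the one at the 3' end of Fbxl4. The forkhead words share all but their first base, and ATCGATA reads on both strands inside TATCGATA, as it does at mts. The region at the 3' end of Fbxl4 is shown because it holds both ATCGATA and GGTCACAC, with the M1BP word in reverse orientation:
CG42271 side of Fbxl4 (chrX:14234222-14234322, - strand): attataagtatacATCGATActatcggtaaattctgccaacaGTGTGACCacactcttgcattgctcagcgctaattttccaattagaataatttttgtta

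CACGTG, the E-box through which the clock activators Clk and cyc act, occurred at 1 of the 16, beside 1.13% of thresholded summits and 1.82% of start-site windows. It lay 5 bp from the summit of the region at Hsc70-3, downstream of CkIIbeta, and not at a start of any of the 10 genes. CAGCTG occurred at 1, the intronic sgg region, beside 6.77% of thresholded summits and 8.77% of start-site windows. The window at Hsc70-3 is shown for its central E-box:
Hsc70-3 side of CkIIbeta (chrX:11806370-11806470, + strand): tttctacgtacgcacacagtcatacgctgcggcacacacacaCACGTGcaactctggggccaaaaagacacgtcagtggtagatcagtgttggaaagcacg

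Other genes of the same pathways were read from a list of 33, all found in the annotation, 1 of them through an older symbol. A thresholded summit lay at a start of 17, or 51.5%, beside 22.9% of protein-coding genes and 7 of 10 members. The median signal at these 17 was 180.0. By group it was 7 of 11 phosphatase genes, 6 of 13 genes of kinases, their subunits and partners, and 4 of 9 genes of the ubiquitin pathway. The list was also drawn up with earlier results known, and its median gene length was 4209 bp.

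The strongest of these was at gish, a casein kinase of the same family as dco, with a signal of 851.9. It had rank 32 in the pooled list, 33 in replicate 2 and 36 in replicate 3, ahead of every member. sds22, a regulator of protein phosphatase 1, followed with 483.9 at a start shared with Brf. The kinase gene Doa had 343.6, and CkIalpha, another casein kinase gene, had 291.7. ctrip, a ubiquitin ligase gene that acts on the clock, had 245.9, and Sik3, a kinase gene, had 216.8.

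Further subunit genes of protein phosphatase 2A also had regions at their starts. Pp2A-29B, the scaffold subunit, had a signal of 220.0 at ranks 1257 in replicate 2 and 680 in replicate 3. wdb, an alternative regulatory subunit, had 187.9 at ranks 1260 and 1777, and wrd, of the same kind, had 150.1. With mts and tws, these subunit genes all carried a region in the top set of both replicates. So did 13 of all 17 listed other genes with a region at a start. Cka, another regulatory subunit gene, had none at a start. The scaffold of the ligase that holds slmb, Cul1, had a region of rank 2124 in replicate 2 and 6424 in replicate 3, outside the top set in replicate 3. SkpA and Roc1a, which encode further subunits of that ligase, had no thresholded summit at a start.

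**Figure D4:**
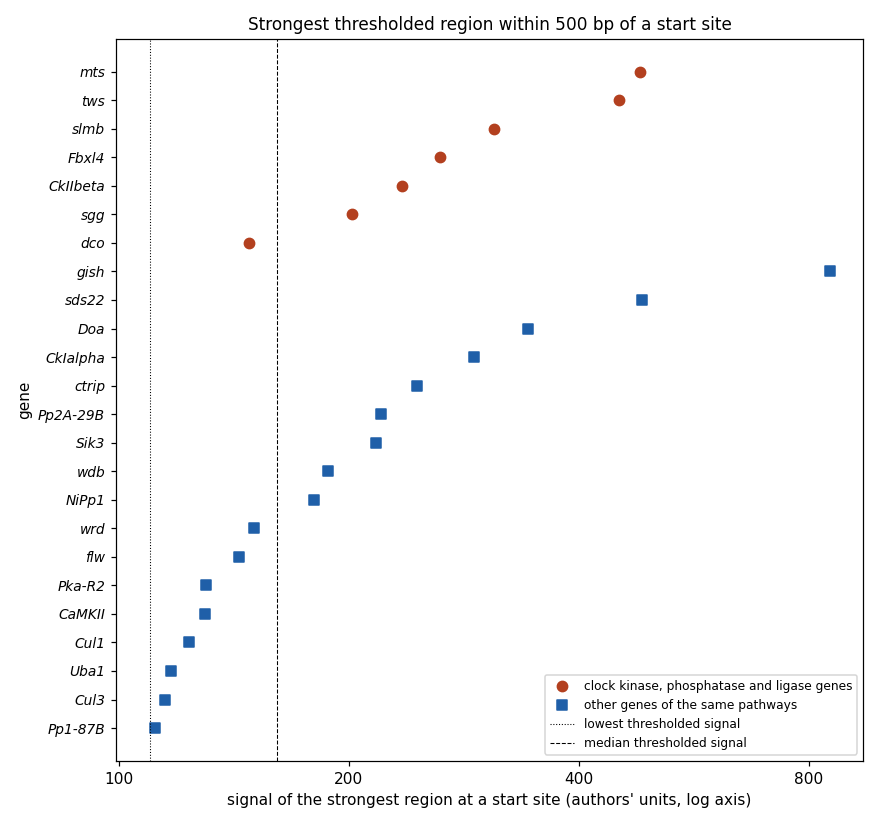
The plot gives the signal, on a log axis in the authors' units, of the strongest thresholded region within 500 bp of a start for the 7 members (circles) and the 17 other pathway genes (squares) that have one, with the lowest and the median signal of all thresholded regions as lines. 6 of the 7 members, all but dco, lie right of the median, and gish stands highest at 851.9.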

How the data were processed

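Regions were analysed in 2 ChIP-seq samples of 1 group. Per the deposited file descriptions, the authors called each replicate list from that replicate and 1 shared control alignment, the pooled list from both replicates, and the thresholded list from these by irreproducible discovery rate, on build dm6. No source used here names the aligner or the caller. Regions were ranked by the authors' deposited signal, while their deposited −log10 q values entered no result. The dm3 lists were not used here.

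Summits were set against Ensembl release 115 start sites and Release 6 sequence with Python 3.11.15 and pandas 2.3.3; printed coordinates count from 1. Overlap meant at least 1 bp, and top-ranked the 3707 strongest regions of a replicate. The gene flags were tested on simulated regions. The members, the list of other genes and the words were chosen with earlier results of these data known, so members are described beside all genes and no p-value is given. All members were named, with the genes starting within 500 bp of their summits and up to 8 others of highest signal; wrd, Cka, Cul1, SkpA, Roc1a and, below, Bdbt were named in addition after their values were seen. Alternatives covered distances, start sites, overlap rule, a stricter signal limit, word window and each replicate alone.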

Additional observations from a re-analysis of the deposited data

How the results depend on the processing

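With the distance cut to the gene body only, 5 of the 10 members kept a thresholded region, beside 22.9% of protein-coding genes. With own starts in reach of 250 bp instead of 500 bp, 4 members had a summit in place of 7, beside 19.6% of genes: mts, dco and Fbxl4, whose summits lie 275 to 376 bp away, dropped out. The same change left 11 of the 33 other pathway genes in place of 17, and the 1853 thresholded regions of highest signal left 9, where 13.7% of genes had a summit at a start. A word window of 100 bp on each side gave 2 regions with a forkhead word in place of 0, beside 20.1% of thresholded regions. The other settings tried moved no count by more than 1.5 times. When a replicate was left out and the top regions of the remaining one were used, 10 members were counted within 5 kb, beside 47.6% and 47.9% of genes, and 7 with a summit at an own start, beside 22.4% and 22.6%. The other pathway genes then numbered 14 to 16, beside the same shares at starts. Only the 5' end of each gene model gave 6 members, without sgg, beside 20.9% of genes. Depth is unknown, the 2 replicates share a control, and a summit near the starts of a divergent pair cannot be given to one gene by these lists.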

Other observations

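In the dco window the 9-base word AGGTGGCGC, known as the core of the site bound by the insulator protein CTCF in flies, occurred 3 times on the 2 strands. The word was noticed in the printed sequence and searched afterwards. It was present at 1 of the members' regions and at 24 thresholded summits, or 0.647%, beside 0.0675% of start-site windows, and the dco window was the 1 thresholded window with 3 or more copies.

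The candidate next below the threshold around any member lay 282 bp past the 3' end of slmb. Its signal was 105.9 and its rank 3948, with 3767 in replicate 2 and 6255 in replicate 3. The nearest start, 114 bp away, is that of Bdbt, which encodes a partner of the dco kinase. At the region upstream of CkIIalpha the word ATAAACA was centred 48 bp from the summit, with 1 base outside the window of 50 bp.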
